A study of Mus musculus with 6 samples.

Results

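The genes described here encode the enzymes and partners that methylate DNA and the polycomb proteins that mark histones, and they comprise *Dnmt1*, *Uhrf1*, *Hells*, *Dnmt3a*, *Dnmt3b*, *Ezh2*, *Ezh1*, *Eed*, *Suz12* and *Bmi1*. Members were the probe sets whose platform annotation names exactly 1 of these 10 genes, which gave 25 of the 22690 probe sets and 10 of the 12393 genes on the array. Expression was measured on 6 Affymetrix mouse arrays with RNA from thymocytes of 3-week-old C57BL6 mice. In 3 arrays, labelled SCL-LMO1, the mice carried an SCL transgene under the Sil promoter and an LMO1 transgene under the Lck promoter on a Cd3ε-/- background. In the 3 arrays labelled control the mice were Cd3ε-/- without the transgenes, so that the labels give all animals as lacking the CD3ε chain of the pre-T-cell receptor, and thymocyte development in such mice halts at an immature CD4- CD8- stage. A *Cd3e* probe set read 8.58 ± 0.06 and 8.52 ± 0.18 in the SCL-LMO1 and control arrays (log2, SD, n = 3 each), and whether it lies in the deleted part is not stated, so it does not check the deletion. The study set these groups side by side to find genes behind the self-renewal of pre-leukemic thymocytes.

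In mammalian cells methyl groups on cytosines of CpG pairs are copied to the new strand at each DNA replication. DNMT1 is the methyltransferase that does the copying, UHRF1 recognizes half-methylated CpG pairs and brings DNMT1 to them, and HELLS is a chromatin remodeler of the SNF2 type that gives the enzymes access to packed chromatin. DNMT3A and DNMT3B place methyl groups on sites that had none. Polycomb repressive complex 2 (PRC2) methylates lysine 27 of histone H3 through EZH2, or through EZH1 in cells that divide little, together with the core subunits EED and SUZ12, while BMI1 belongs to polycomb repressive complex 1 (PRC1), which attaches ubiquitin to histone H2A and represses the cell cycle inhibitor locus *Cdkn2a*. In the T lineage both systems are known for holding alternative programs silent, and loss of PRC2 function is a known lesion of T-cell acute lymphoblastic leukemia.

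The promoter windows of several members share a sequence that genes of the S phase often carry, and 4 windows that hold it are shown. They were picked for the motif and do not stand for the genes that separate the labels below. *Dnmt3b*, 1 of those genes, had 0 matches in its window, and *Ezh2*, shown here, did not separate them. The windows of *Dnmt1* and *Uhrf1* that are not shown had 0 matches. Each runs from 250 bases before to 50 bases after a transcription start of RefSeq (build GRCm38.p6), is written 5′ to 3′ on the strand of the gene, and has in capitals every match to the E2F motif, searched as TTTCCCGC, TTTGGCGC, TTTCGCGC or TTTGCCGC on both strands. The windows are chr9:20952574-20952873 (minus strand) for *Dnmt1*, chr17:56304063-56304362 (plus strand) for *Uhrf1*, chr19:38930740-38931039 (plus strand) for *Hells* and chr6:47594981-47595280 (minus strand) for *Ezh2*.
Dnmt1: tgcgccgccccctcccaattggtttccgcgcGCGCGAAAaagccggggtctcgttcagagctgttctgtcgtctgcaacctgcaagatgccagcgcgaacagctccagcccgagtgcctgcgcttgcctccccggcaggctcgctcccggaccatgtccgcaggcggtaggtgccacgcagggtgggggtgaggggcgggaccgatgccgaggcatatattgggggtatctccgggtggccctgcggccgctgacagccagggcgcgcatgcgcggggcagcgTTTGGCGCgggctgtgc
Uhrf1: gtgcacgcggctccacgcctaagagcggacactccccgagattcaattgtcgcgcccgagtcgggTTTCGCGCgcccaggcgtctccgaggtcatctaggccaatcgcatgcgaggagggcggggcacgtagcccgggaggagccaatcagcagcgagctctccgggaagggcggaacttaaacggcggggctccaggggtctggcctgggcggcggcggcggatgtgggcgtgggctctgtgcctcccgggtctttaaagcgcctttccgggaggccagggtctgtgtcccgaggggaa
Hells: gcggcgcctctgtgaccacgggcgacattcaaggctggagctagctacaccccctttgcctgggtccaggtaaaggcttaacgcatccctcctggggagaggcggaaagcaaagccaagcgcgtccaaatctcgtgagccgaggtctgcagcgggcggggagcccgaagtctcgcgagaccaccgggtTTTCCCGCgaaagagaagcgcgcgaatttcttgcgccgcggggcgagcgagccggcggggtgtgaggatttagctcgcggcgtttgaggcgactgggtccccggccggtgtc
Ezh2: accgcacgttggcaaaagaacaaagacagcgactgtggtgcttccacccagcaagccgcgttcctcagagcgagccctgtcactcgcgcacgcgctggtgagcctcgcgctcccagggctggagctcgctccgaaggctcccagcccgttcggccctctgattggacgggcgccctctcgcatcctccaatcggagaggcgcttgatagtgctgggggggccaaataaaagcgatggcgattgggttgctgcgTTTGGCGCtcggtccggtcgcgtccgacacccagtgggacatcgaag
All 10 genes had at least 1 window in the table, 15 windows in all. The E2F motif was found in 5 of the 15, with 1 window each of *Dnmt1*, *Uhrf1*, *Hells*, *Ezh2* and *Suz12*, and in 2.26% of all 32851 windows. All 5 lay among the windows with at least 20 CpG pairs, of which 5.15% carry the motif over all genes. Counted from the first transcribed base as 1, with negative positions before it, the match lay at −62 to −55 in *Hells*, −185 to −178 in *Uhrf1* and 4 to 11 in *Ezh2*, and *Dnmt1* had matches at −219 to −212 and at 34 to 41. The letters CAGATG or CAGCTG, an E-box that SCL and its E protein partners can bind, were in 0 of the 15 windows and in 30.6% of all windows, and the GATA letters AGATAA in 0 of the 15 and in 11.2%. For the E-box and GATA letters the share among windows rich in CpG pairs was not taken, so a lack of them in the members was not tested. With 0 matches to either, no overlap with the E2F motif was possible. A match describes these letters in this window and no more. CpG pairs numbered 2 to 47 in the member windows, against a median of 7 over all windows, and 10 of the 15 had at least 20.

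Before the values, the labels need a remark. *Lmo1* stood at 5.01 ± 0.14 in the SCL-LMO1-labelled arrays against 6.75 ± 0.10 in the control-labelled ones (log2, SD, n = 3 each; difference −1.74, SE 0.14, limma adjusted p = 8.3e-04), although *LMO1* is a transgene of the first group. The sources used here do not say whether this probe set reads the transgene. *Tal1*, the gene of SCL, lay below the filter described next but read 4.55 to 4.71 in the SCL-LMO1-labelled arrays against 4.27 to 4.44 in the control-labelled ones, the way the labels say. Whether the *Tal1* probe set reads the SCL transgene is not stated either, and its difference was not tested. The study lists *Hells*, *Cdc6*, *Slc4a1* and *Ptcra* among the genes that were lower in SCL-LMO1 thymocytes, while all 4 had higher means in the arrays with that label. The last 3 differed by 1.06, 1.07 (with overlap) and 1.28. For *Ptcra* the paper also reports, apart from the arrays, inhibition by SCL in an immature T cell line. Exchanged labels cannot be told apart from other causes here, the labels are used as they stand, and every difference is labelled SCL-LMO1 minus labelled control. The arrays also fall into a low set (SCL-LMO1 replicates 2 and 3 and control replicate 1) and a high set (SCL-LMO1 replicate 1 and control replicates 2 and 3) by the mean of 9 bacterial hybridization control probe sets, at 9.12 to 9.78 and 10.56 to 10.78, which splits both labels unevenly. The first principal component, with 53.9% of the variance, had the high set on 1 side and the low set on the other. Arrays of 1 label differed in the sex markers *Xist* and *Eif2s3y*, which were looked at outside the rule for named genes. *Xist* read 10.08, 10.37 and 11.16 in SCL-LMO1 replicates 1 to 3 and 11.06, 6.15 and 10.91 in control replicates 1 to 3, and the Y-linked *Eif2s3y* read 5.43, 6.23 and 2.74 against 3.15, 5.74 and 2.85. SCL-LMO1 replicates 1 and 2 were high on both markers, and whether an array pools animals of both sexes was not tested. Sex markers were thus uneven within and between the labels, and the part of sex in the results was not tested. Of 20 thymocyte genes such as *Thy1* and *Rag1*, 18 were on the array and 16 lay above the filter. Neutrophil markers moved with the labels in part, with 6 of 13 tested genes higher at an unadjusted p under 0.05, against 6.3% of all genes. Of the 13, 9 had a difference above 0 and the rest below it, 0 of them at that p. The summed linear signal over 14 genes ran from 1610 to 3347 in SCL-LMO1-labelled arrays against 789 to 1368 in the control-labelled ones. The part of these markers in the results below was not tested. In bulk thymocyte RNA, fewer cells of a type and less RNA per cell cannot be told apart.

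Values are log2 RMA expression, 1 number per probe set and array, and a level on 1 probe set cannot be set against that on another. A probe set was tested where its value reached the array's own 40th percentile on 3 or more of the 6 arrays, and 23 of the 25 passed, with all 10 genes. The other 2, 1 each of *Eed* and *Suz12*, lay below it on every array. None of the 23 passed limma at a Benjamini-Hochberg adjusted p under 0.05 over 13776 probe sets, where 0.102% of all passed, and the lowest adjusted p among them was 0.224. At an unadjusted p under 0.05, 5 of the 23 were higher and 0 lower in the arrays labelled SCL-LMO1, against 6.18% and 2.67% of all probe sets. The same 5 were the ones in which the groups did not overlap, all higher, where 7.36% of all probe sets were separated in that direction. They belong to *Dnmt1* (2 probe sets), *Uhrf1*, *Hells* and *Dnmt3b*. Differences were above 0 in 19 of the 23, against 49.8% of all, with a median of 0.29 beside −0.00061 over all probe sets. The members' median was 0.19 within the low hybridization set, 0.036 within the high one and 0.13 with the set as a block. Rank products, the test named in the methods, called 1 member probe set, *Hells*, at an estimated share of false positives under 0.1, where 0.298% of all probe sets were called higher. The threshold stated with the study's gene list is stricter, and no member passed it in this run. The study's own list does hold *Hells*, as lower, after a presence filter that was not applied here. With each gene read by its brightest probe set, 0 of the 10 genes passed limma, where 0.161% of all 8693 genes did, 4 were higher at an unadjusted p under 0.05 (6.3% of all) and 0 lower (3.14% of all), and rank products again called *Hells* (0.518% of all). With arrays weighted by their agreement with the fit, 3 probe sets passed limma, both of *Dnmt1* and 1 of *Uhrf1*, where 1.99% of all passed as higher, and so did 3 genes, *Dnmt1*, *Uhrf1* and *Hells*, where 4.83% did.

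**Figure D1:**
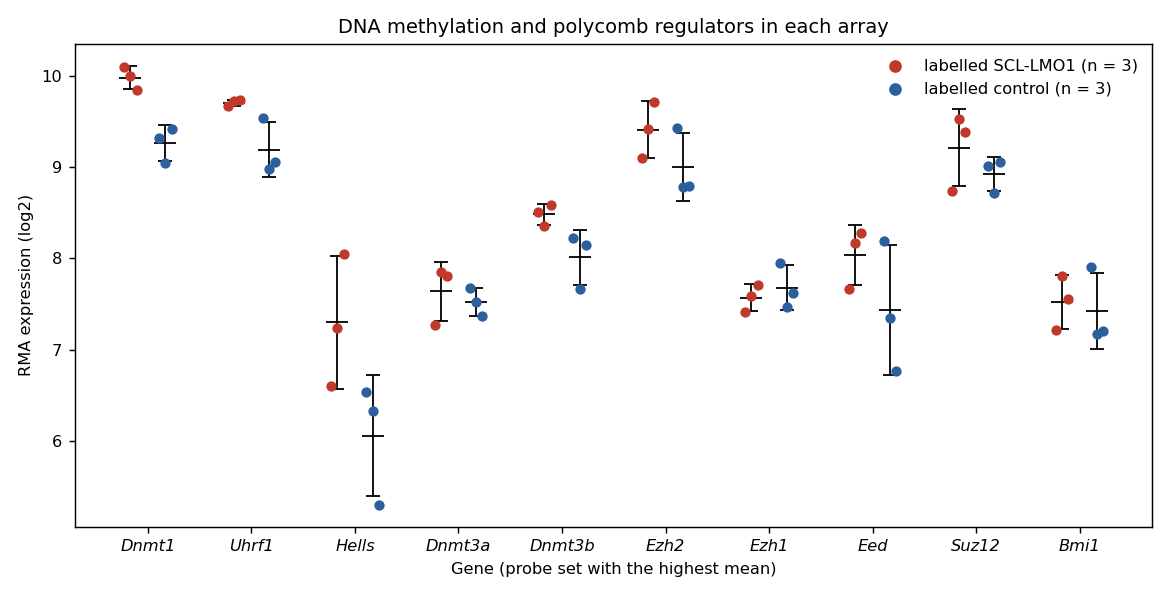
RMA expression (log2, y axis) of the 10 genes in each array, each gene at its probe set with the highest mean, SCL-LMO1-labelled arrays in red, control-labelled arrays in blue, mean and SD as black bars (n = 3 each). The groups lie apart in *Dnmt1*, *Uhrf1*, *Hells* and *Dnmt3b*, as for *Dnmt1* at means of 9.98 and 9.26, and overlap in the other 6 genes.

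The maintenance genes held most of the separation. All 5 of their probe sets, on 3 genes, had higher means in the arrays labelled SCL-LMO1, 4 of them without overlap, and the median difference was 0.61. *Dnmt1* read 10.10, 9.996 and 9.85 in SCL-LMO1 replicates 1 to 3 and 9.32, 9.05 and 9.42 in control replicates 1 to 3 on probe set 1435122_x_at. The lowest SCL-LMO1 array stood 0.42 above the highest control array, the widest gap among the members. The difference was 0.72 (SE 0.16, 95% interval 0.36 to 1.07, limma adjusted p = 0.224), a 1.64-fold higher level. The suffix x marks a probe set with probes that can also bind other transcripts. The other *Dnmt1* probe set, 1422946_a_at, whose suffix marks probes shared by transcripts of 1 gene, read 9.18, 9.52 and 9.49 against 9.06, 8.59 and 8.70 in the same order. Here too the groups were apart, with a difference of 0.61 (SE 0.17, 95% interval 0.22 to 1.01, limma adjusted p = 0.367). Groups apart in this direction give a difference above 0 within each hybridization set by construction. For the *Dnmt1* probe sets it was 0.60 and 0.44 in the low set and 0.86 and 0.54 in the high set.

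*Uhrf1*, the partner that guides DNMT1, read 9.67, 9.72 and 9.73 in the arrays labelled SCL-LMO1 against 9.53, 8.98 and 9.06 in the control-labelled ones on probe set 1415810_at. The SCL-LMO1 arrays lay within 0.06 of one another, and control replicate 1 came within 0.14 of the lowest of them. The difference was 0.52 (SE 0.17, 95% interval 0.13 to 0.91, limma adjusted p = 0.445), with 0.19 within the low set and 0.65 within the high one. The other *Uhrf1* probe set, 1415811_at, did not repeat the separation. It read 6.49, 7.07 and 7.03 against 6.55, 7.14 and 6.41, a difference of 0.16 (95% interval −0.36 to 0.68) that was −0.28 in the high set.

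*Hells*, the remodeler, had the largest difference of the 25 probe sets, and the largest SE of the 23 tested. It read 6.60, 7.24 and 8.05 in SCL-LMO1 replicates 1 to 3 and 6.54, 6.33 and 5.30 in control replicates 1 to 3. The groups were apart by 0.06 alone, between SCL-LMO1 replicate 1 and control replicate 1, and the SDs were 0.73 and 0.66. The difference of 1.24 (SE 0.40, 95% interval 0.35 to 2.13), a 2.36-fold higher level, had a limma adjusted p of 0.434 and an estimated share of false positives of 0.0222 by rank products, which does not weigh a gene's own spread. It was 1.11 within the low set and 0.79 within the high one, and lay between 0.86 (control replicate 3 left out) and 1.59 (SCL-LMO1 replicate 1 left out).

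The de novo methyltransferases differed less. *Dnmt3b* read 8.51, 8.36 and 8.58 in the SCL-LMO1-labelled arrays against 8.23, 7.67 and 8.14 in the control-labelled ones on probe set 1449052_a_at. The groups did not overlap, and the difference was 0.47 (SE 0.18, 95% interval 0.07 to 0.87, limma adjusted p = 0.490). It was 0.30 without control replicate 2. Its other probe set, 1418351_a_at, overlapped, at 7.32, 7.64 and 7.59 against 7.35, 7.49 and 7.08, with a difference of 0.21 (95% interval −0.16 to 0.58). *Dnmt3a* had 5 probe sets, and all 5 overlapped, with differences of 0.02 to 0.50 and limma adjusted p values of 0.586 to 0.969. The brightest, 1423063_at, read 7.27, 7.85 and 7.81 against 7.68, 7.52 and 7.37, a difference of 0.12 (SE 0.19, 95% interval −0.31 to 0.54). For that probe set SCL-LMO1 replicate 1 was the lowest of all arrays, and the difference was −0.015 with the hybridization set as a block. The smallest difference, of probe set 1423064_at, turned to −0.022 after quantile normalization. The upper ends of these 5 intervals reached 0.32 to 1.07, so that a difference of the size of *Dnmt1* lay inside the interval of some *Dnmt3a* probe sets and outside that of others.

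**Figure D2:**
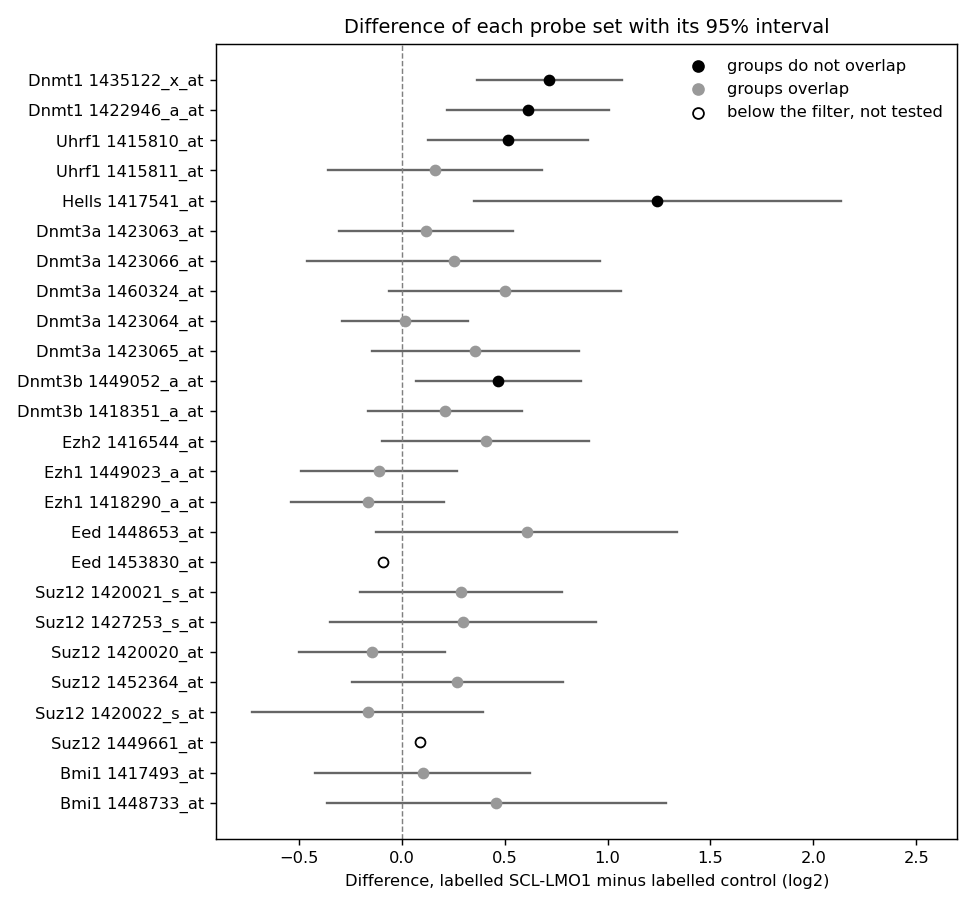
Difference of each of the 25 probe sets (labelled SCL-LMO1 minus labelled control, log2, x axis) with its 95% interval from limma. Black points mark probe sets whose groups do not overlap, grey points those that overlap, and open points the 2 below the filter, which have no interval. The 5 black points belong to *Dnmt1*, *Uhrf1*, *Hells* and *Dnmt3b*, at 0.47 to 1.24. None of the polycomb probe sets is black, where 7.36% of all tested probe sets were separated as higher.

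In the polycomb genes no probe set separated the groups, where 7.36% of all tested probe sets were separated as higher. Of the 11 tested, 0 had an unadjusted p under 0.05, against 6.18% higher and 2.67% lower of all. Among 11 probe sets, 0 is near these shares. Their differences ran from −0.17 to 0.61 with a median of 0.27, 7 above and 4 below 0. That median was 0.14 within the low set and −0.029 within the high one. The 12 probe sets of the DNA methylation genes, all tested and all above 0, had a median of 0.41, with 0.22 within the low set and 0.37 within the high one. The difference between these groups of genes was not tested. *Ezh2*, the catalytic subunit of dividing cells, read 9.10, 9.42 and 9.72 in the SCL-LMO1-labelled arrays against 9.43, 8.78 and 8.80 in the control-labelled ones. Control replicate 1 lay above SCL-LMO1 replicates 1 and 2, and the other control arrays lay below every SCL-LMO1 array. The difference was 0.41 (SE 0.22, 95% interval −0.10 to 0.91, limma adjusted p = 0.607), and it was 0.14 within the low set and 0.31 within the high one. With 1 array left out it lay between 0.25 (SCL-LMO1 replicate 3) and 0.62 (control replicate 1). *Ezh1*, the subunit of cells that divide little, read 7.42, 7.59 and 7.71 against 7.95, 7.47 and 7.62 on probe set 1449023_a_at. Its difference was −0.11 (95% interval −0.49 to 0.27, limma adjusted p = 0.828), which turned to 0.026 without control replicate 1, and that of its other probe set, 1418290_a_at, was −0.17 (95% interval −0.54 to 0.21).

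*Eed*, which reads the histone mark and stimulates EZH2, read 7.66, 8.17 and 8.28 in the arrays labelled SCL-LMO1 against 8.19, 7.34 and 6.77 in the control-labelled ones on probe set 1448653_at. As in *Ezh2*, control replicate 1 lay among the SCL-LMO1 arrays and the other controls below them. The difference of 0.61 (SE 0.33, 95% interval −0.13 to 1.34, limma adjusted p = 0.6) was 0.04 within the low set and 0.61 within the high one, and lay between 0.27 (control replicate 3 left out) and 0.98 (control replicate 1 left out). *Suz12*, which holds the complex together, had 5 tested probe sets that did not share a sign. The brightest, 1420021_s_at, whose suffix marks probes that several transcripts or genes can share, read 8.74, 9.52 and 9.38 against 9.01, 8.71 and 9.06. Its difference was 0.29 (SE 0.22, 95% interval −0.20 to 0.78, limma adjusted p = 0.682), 0.44 within the low set and −0.15 within the high one, and 0.13 without SCL-LMO1 replicate 2. The 4 other tested *Suz12* probe sets differed by −0.17, −0.14, 0.27 and 0.30, each with overlap. *Bmi1* read 7.22, 7.81 and 7.55 against 7.90, 7.17 and 7.21 on probe set 1417493_at, where control replicate 1 was the highest of all arrays. Its difference of 0.10 (95% interval −0.42 to 0.63, limma adjusted p = 0.884) turned to −0.10 once the hybridization set entered as a block. Its other probe set, 1448733_at, spread from 5.45 to 6.73 in the arrays labelled SCL-LMO1 and from 5.18 to 6.38 in the control-labelled ones, with a difference of 0.46 (95% interval −0.36 to 1.28). That was 0.18 without control replicate 3, 0.83 without SCL-LMO1 replicate 1 and 0.11 with the hybridization block.

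Arrays of 1 label did not move as a block. Over the 10 genes, control replicate 1 was the highest control array in 8, where it was highest in 38.3% of all 8693 genes tested, and SCL-LMO1 replicate 1 was the lowest SCL-LMO1 array in 8, against 39.7%. These arrays lie in the opposite hybridization set from the other arrays of their label. Between main probe sets, Pearson's r over the 6 arrays ran from −0.26 for *Dnmt1* and *Ezh1* to 0.92 for *Ezh2* and *Eed*, as a description of points that share array, label and hybridization set. Within the hybridization sets, 11 of the 23 tested probe sets were higher for the SCL-LMO1 label in both, against 30.5% of all. Among them were 8 of the 12 probe sets of the DNA methylation genes, the 5 without overlap included, and 3 of the 11 of the polycomb genes. Those 5 are above 0 in both sets by construction, since each of their SCL-LMO1 arrays exceeds each control array. With the hybridization set as a block 0 of the 23 passed limma, where 0.145% of all did, and the lowest adjusted p was that of *Dnmt1*, at 0.146 for a difference of 0.73.

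**Figure D3:**
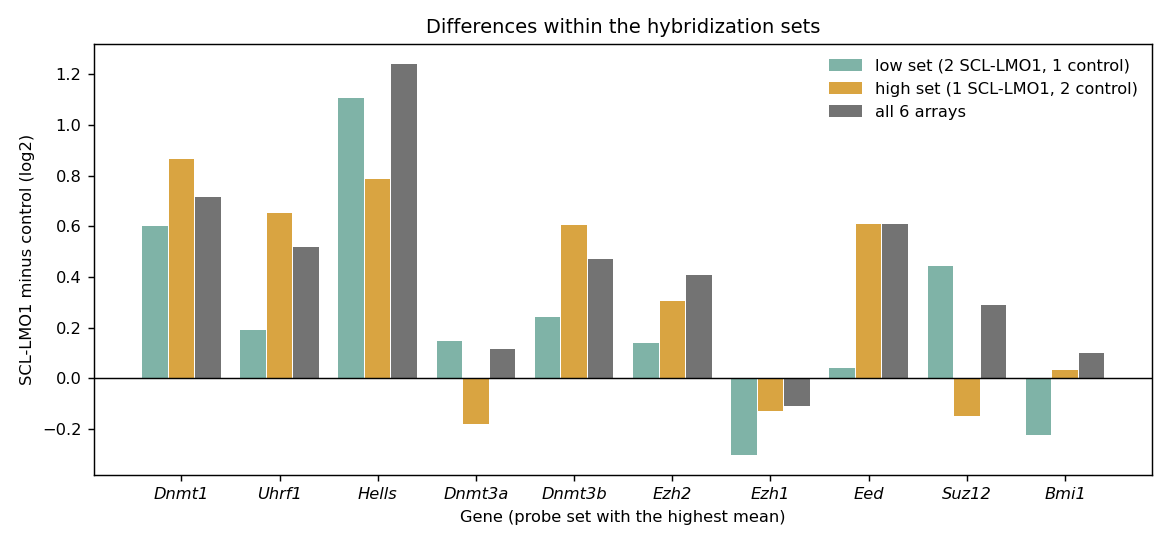
Difference (labelled SCL-LMO1 minus labelled control, log2, y axis) of each gene at its main probe set within the low hybridization set, within the high set and over all 6 arrays. Each set holds 3 arrays, so the bars carry no error. The bars of *Dnmt1*, *Uhrf1*, *Hells* and *Dnmt3b* are above 0 in both sets, by construction, as their groups do not overlap. The lowest of them is 0.19, for *Uhrf1* in the low set. Those of *Dnmt3a*, *Suz12* and *Bmi1* change sign between sets.

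Genes of DNA replication and mitosis, the phases in which maintenance methylation acts and daughter cells form, were described beside the members. Of 25 replication genes tested, 0 passed limma over all genes, 15 were higher and 0 lower at an unadjusted p under 0.05, and 15 did not overlap, all higher, where 7.32% of all genes did so in that direction and 6.37% in the other. *Rfc4*, a subunit of the clamp loader, differed by 1.08 (SE 0.18, limma adjusted p = 0.0723) and *Prim1*, of primase, by 0.88 (SE 0.14, limma adjusted p = 0.0598). *Cdc6*, the loader of the replicative helicase, differed by 1.06, opposite in direction to the study's list, and *Rrm2*, of ribonucleotide reductase, by 0.88. The median over the list was 0.51, with 0.39 in the low and 0.49 in the high set, beside −0.0080 over all genes. Of 15 mitosis genes tested, 0 passed, 14 were higher at an unadjusted p under 0.05 and 14 did not overlap, with a median of 0.63 and values of 0.91 for *Mki67*, the proliferation antigen, and 0.69 for *Top2a*, the topoisomerase. Averaged over its genes, the replication list stood at 8.32, 8.40 and 8.54 in SCL-LMO1 replicates 1 to 3 and 8.04, 7.87 and 7.90 in control replicates 1 to 3. The mitosis list stood at 7.60, 7.73 and 7.87 against 7.11, 7.18 and 7.05. Both lists separate the labels as *Dnmt1* does, and their part in the members' differences was not tested.

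**Figure D4:**
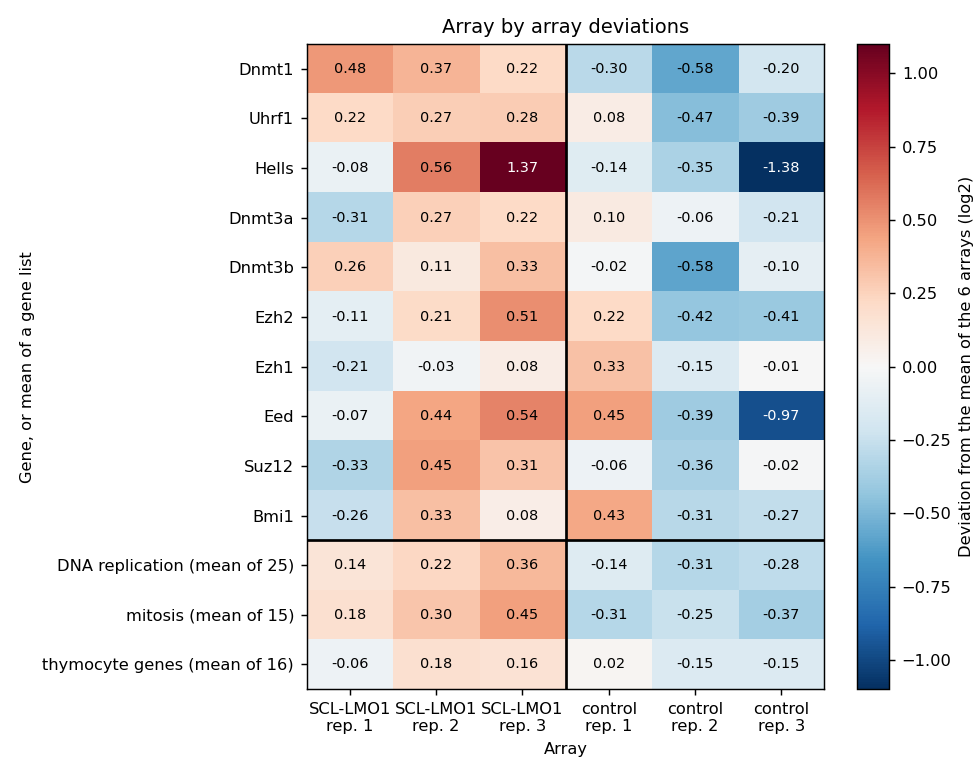
Deviation of each array (columns) from the mean of the 6 arrays (log2) for the 10 genes at their main probe sets and for the mean of 3 gene lists (rows), red above and blue below that mean. *Dnmt1* and the replication and mitosis lists are above 0 in all SCL-LMO1 arrays and below 0 in all control arrays. *Dnmt3a*, *Ezh2*, *Ezh1*, *Eed* and *Bmi1* are above 0 in control replicate 1 and below 0 in SCL-LMO1 replicate 1.

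The genes whose pattern over the 6 arrays was most like that of the separated members were named by Pearson's r among the 8693 genes, as a description. For *Dnmt1* they were *Cdca5*, *Melk*, *Zbtb8a*, *Alas1* and *U2af1l4*, with r from 0.969 to 0.995. For *Uhrf1* they were *Gtf3c4*, *Ppp4r3b*, *Pcbd2*, *Xbp1* and *Rpl22*, with r from 0.988 to 0.998. For *Hells* they were *Idi1*, *Eef1e1*, *Nprl2*, *Prps1l3* and *Mtm1*, with r from 0.987 to 0.990. With 6 points that share label and hybridization set, r this high says little of any 1 gene.

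In other parts of both pathways none of the tested genes passed limma, and few had an unadjusted p under 0.05. Of all genes, 0.161% passed, and 6.3% were higher and 3.14% lower at that unadjusted p. Of 10 readers and cofactors of DNA methylation tested, 1 had an unadjusted p under 0.05. It was *Cdca7*, which works with HELLS, at 9.52, 9.78 and 10.15 in the SCL-LMO1-labelled arrays against 9.47, 8.96 and 8.80 in the control-labelled ones, a difference of 0.74 (SE 0.22, limma adjusted p = 0.325). *Usp7*, a deubiquitinase that stabilizes DNMT1 and UHRF1, differed by 0.32, and the list's median was 0.20. *Tet1* was the 1 gene tested of 4 listed for the removal of DNA methylation. It lay lower without overlap, as 6.37% of all genes did, at 6.16, 6.49 and 6.45 against 6.51, 6.999 and 6.64. The difference was −0.35 (limma adjusted p = 0.555), with −0.04 within the low set and −0.66 within the high one. Among 6 genes of the methyl donor cycle, *Shmt2* differed by 0.51 (unadjusted p = 0.0283) and *Mthfd1* by 0.30, with a list median of 0.24. In 6 genes of histone H3 lysine 9 methylation and its readers the median was −0.0041 and 0 had an unadjusted p under 0.05.

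Among the other PRC2 subunits, 0 of 7 tested had an unadjusted p under 0.05, and the median was 0.16, with −0.045 within the low set and 0.0028 within the high one. The accessory subunit genes *Aebp2* and *Mtf2* differed by 0.37 and 0.33, *Rbbp4*, a histone chaperone of the core complex, by 0.30 without overlap, and *Jarid2*, which recruits the complex, by −0.21. Of 12 PRC1 genes, 1 was higher and 0 lower at an unadjusted p under 0.05, with a median of 0.10. *Yaf2*, of a variant PRC1, differed by 0.58 (SE 0.18, limma adjusted p = 0.351), and *Cbx2*, whose product binds the PRC2 mark, by −0.34, both without overlap. Of 6 polycomb antagonists, *Asxl1*, a partner of the histone H2A deubiquitinase BAP1, differed by 0.42 without overlap and *Kmt2a*, a methyltransferase of histone H3 lysine 4, by −0.41 with overlap, each with an unadjusted p under 0.05 (limma adjusted p = 0.480 and 0.520).

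Genes that these systems are known to silence in many tissues were mostly below the filter. Of 20 polycomb targets, all on the array, 7 lay above it. Each had a difference below 0, where 49.8% of all tested probe sets had one above 0. Of the 7, 0 had an unadjusted p under 0.05 and 0 were without overlap. Their median was −0.17, with −0.07 within the low set and 0.0038 within the high one. *Pax3* was at 0.06 within the low set. *Hoxa9*, a homeobox gene of progenitors, read 7.02, 6.73 and 6.68 in the SCL-LMO1-labelled arrays against 6.73, 7.13 and 7.07 in the control-labelled ones, a difference of −0.17 (limma adjusted p = 0.720). Of 11 germline genes held silent by DNA methylation, 9 were on the array and 1 lay above the filter, *Rhox5*, a homeobox gene, with a difference of −0.19 (limma adjusted p = 0.748).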

How the data were processed

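RNA of thymocytes was hybridized to 6 Affymetrix mouse arrays, 3 per label. The authors deposited log2 expression, calculated by RMA (affy; version not given in the sources used here), which corrects background, equalizes arrays by quantiles and summarizes the probes of a set. The MAS5 presence filter of the methods is not applied in the table. Of 22690 probe sets, 20393 name 1 gene in the platform annotation, 691 several and 1606 none, and 20364 matched RefSeq by gene number. The 64 Affymetrix control probe sets stayed out of the tests.

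Labels were compared by limma (version 3.58.1, R 4.3.3) without covariates across 13776 probe sets, and across 8693 genes through the brightest probe set of each, calling a Benjamini-Hochberg adjusted p under 0.05. Rank products took the 9 pairwise differences and 100 permutations. Both were tested on simulated data. Alternatives changed the filter (none, 60th percentile), the scaling (quantile, centred), the variance model, array weights, the replicate or hybridization set as a block, the threshold (0.1), the array left out, the test (rank products) and the summary of a gene over its probe sets. Members and lists were chosen with earlier results of these data known. Named are all members, up to 4 genes per list by size of difference, the transgenes and the 5 genes most like a member. *Cd3e*, *Xist* and *Eif2s3y* were added as checks of the labels, and *Epor* as an erythroid gene that went the other way. No source states how many animals each array stands for. Sex markers differ between arrays of 1 label, so not all share the same RNA source, and p-values cover only the spread between these samples. Precision is limited by the number of arrays.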

Additional observations from a re-analysis of the deposited data

How the results depend on the processing

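The count of members that passed limma was 0 of 23 probe sets and 0 of 10 genes, and it stayed at 0 in each setting tried but 2. With array weights, which gave SCL-LMO1 replicate 2 a weight of 4.94 and the other arrays 0.46 to 1.37, 3 probe sets passed, both of *Dnmt1* and 1 of *Uhrf1*, and 3 genes passed, *Dnmt1*, *Uhrf1* and *Hells*. Rank products called 1 probe set and 1 gene, *Hells*. With the replicate number as a block 0 probe sets and 0 genes passed. Arrays that share a number had residuals correlated at −0.63, 0.05 and −0.38, and no pairing was assumed. Signs turned for members near 0, and the cause was not tested. With the hybridization set as a block, *Bmi1* 1417493_at turned to −0.10, *Dnmt3a* 1423063_at to −0.015 and *Dnmt3a* 1423066_at to −0.040. *Dnmt3a* 1423064_at turned to −0.022 after quantile normalization and to −0.0030 with array weights. With 1 array left out, *Bmi1* 1417493_at ranged from −0.040 (without SCL-LMO1 replicate 2) to 0.34, *Dnmt3a* 1423064_at from −0.051 (without control replicate 1) to 0.056, *Dnmt3a* 1423066_at from −0.026 (without control replicate 3) to 0.61, *Suz12* 1420022_s_at from −0.38 to 0.15 (without control replicate 3) and *Ezh1* 1449023_a_at from −0.21 to 0.026 (without control replicate 1). The 5 probe sets without overlap stayed above 0 in all settings run. For groups that lie apart, leaving out an array or adding a block cannot turn the sign. Quantile normalization lowered *Dnmt1* 1435122_x_at to 0.55 (limma adjusted p = 0.385) and *Dnmt1* 1422946_a_at to 0.46. It also lowered *Uhrf1* 1415810_at to 0.34, *Dnmt3b* 1449052_a_at to 0.33 and *Ezh2* to 0.23. *Hells* stayed at 1.22, and the dimmer *Bmi1* 1448733_at rose to 0.49. The median over all genes was −0.034 after it. *Suz12* 1420021_s_at fell to 0.13 in that setting. Adjusted p values of *Dnmt1* 1435122_x_at ranged from 0.0252 to 0.826 over the alternatives.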

Other observations

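Markers of other cells differed between the labels in part. Erythroid genes had a median difference of 0.35 over 9 tested genes, with 0.43 within the low set and −0.05 within the high one. Of the 9, 6 were above 0, led by *Car2*, a carbonic anhydrase, at 1.09 without overlap. The rest were below 0, and *Epor*, the erythropoietin receptor gene, lay lower without overlap, at −0.30. B cell genes had a median of −0.38 over 6, with *Ms4a1* (CD20) at −0.77 and *Cd79a*, a chain of the B cell receptor, at −0.64, each without overlap. Macrophage and dendritic cell genes had a median of −0.02 over 11, of which 4 were above 0, with *Lyz2* at 0.74 without overlap. Thymic stroma genes had a median of −0.13 over 8, of which 2 were above 0. Their largest differences were 0.57 for *Epcam*, with overlap, and −0.49 for *Pecam1*, without. Thymocyte genes had a median of 0.01 over 16, of which 1, *Ptcra*, encoding the pre-Tα chain, passed limma (difference 1.28, adjusted p = 0.0127), opposite in direction to the study's list. *Rag1* and *Rag2*, the V(D)J recombinase genes, differed by 0.97 and 0.82 without overlap (limma adjusted p = 0.184 and 0.266). None of these lists' parts in the members' differences was tested.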
